A study of Mus musculus with 10 samples.

Results

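The 8 genes described here encode insulin-like growth factor 1 (Igf1), the receptors Igf1r and Igf2r, and the IGF binding proteins Igfbp3, Igfbp4, Igfbp5, Igfbp6 and Igfbp7. They were taken by symbol from the 24063 gene symbols of the deposited count tables, and where a symbol had several transcripts the one with the most reads was kept. The series compares quadriceps RNA from 5 mice given the animal facility's plain water (Control) with 5 mice whose drinking water carried a supplement named 1C-MIM, and so bears on how gene expression in muscle differs with this supplement. Both groups consisted of wild-type C57BL animals, 17 to 20 months old, and 1C-MIM was in the water for 1 to 3 months. In both groups the tibialis anterior had been injured, and the quadriceps that was sequenced had not. The sources used here do not give the contents of 1C-MIM, the time from injury to collection, or the cage of each animal. The deposited names give each library an animal number of its own, so n counts animals, and p-values measure the spread between these animals. Cages held up to 5 mice. A difference between cages thus cannot be told apart from one with the supplement, and the p-values do not measure spread between cages.

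IGF1 binds the receptor tyrosine kinase IGF1R, which signals through insulin receptor substrates to PI3K, AKT and mTOR, and this pathway is known to promote protein synthesis and growth of muscle fibres. Muscle makes its own Igf1, in fibres and also in macrophages and connective tissue cells, and growth hormone raises its transcription through the receptor GHR and the factor STAT5B. The binding proteins hold IGFs in the tissue or the blood, and can limit or prolong their action; IGF2R removes IGF2 and sorts lysosomal enzymes by their mannose-6-phosphate tag.

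The promoters of 4 members are shown because these are the 3 genes that passed the test between the groups (Igfbp3, Igf1r and Igfbp7) and the most abundant one (Igfbp5). Each line gives the 250 bases before the gene's start, 5′ to 3′ on the gene's own strand, from RefSeq with build GRCm38.p6. The counts were made on GRCm39, and the sequences were matched by symbol. Capitals mark the letters of TATA-box-like motifs (TATAAA, also TATATA, also TATTTAAA), the GC box GGGCGG and the CCAAT box, on either strand. The windows are chr11:7213924-7214173 (minus strand) for Igfbp3, chr7:67952007-67952256 (plus strand) for Igf1r, chr5:77408046-77408295 (minus strand) for Igfbp7 and chr1:72874866-72875115 (minus strand) for Igfbp5.
Igfbp3: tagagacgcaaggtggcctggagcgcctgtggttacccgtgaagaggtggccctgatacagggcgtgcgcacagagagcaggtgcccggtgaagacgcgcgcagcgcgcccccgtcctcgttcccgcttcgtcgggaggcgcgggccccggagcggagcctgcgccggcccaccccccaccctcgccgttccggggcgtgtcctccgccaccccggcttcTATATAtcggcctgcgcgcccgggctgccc
Igf1r: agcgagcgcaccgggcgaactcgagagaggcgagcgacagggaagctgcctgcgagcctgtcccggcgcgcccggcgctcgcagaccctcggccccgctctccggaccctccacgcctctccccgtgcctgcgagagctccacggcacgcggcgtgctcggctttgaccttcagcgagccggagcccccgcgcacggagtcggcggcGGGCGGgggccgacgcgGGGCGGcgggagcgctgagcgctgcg
Igfbp7: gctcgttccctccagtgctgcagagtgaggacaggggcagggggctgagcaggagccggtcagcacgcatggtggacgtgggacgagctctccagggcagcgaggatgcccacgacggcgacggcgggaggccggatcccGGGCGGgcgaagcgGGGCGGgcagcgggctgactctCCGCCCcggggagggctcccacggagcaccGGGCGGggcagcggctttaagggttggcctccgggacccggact
Igfbp5: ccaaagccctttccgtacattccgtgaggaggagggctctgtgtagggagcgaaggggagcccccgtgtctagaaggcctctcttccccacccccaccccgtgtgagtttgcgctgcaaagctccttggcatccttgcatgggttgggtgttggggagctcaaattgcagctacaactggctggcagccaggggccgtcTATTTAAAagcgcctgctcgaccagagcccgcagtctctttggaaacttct

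Igfbp3 holds TATATA from 30 to 25 bases before its start, and Igfbp5 holds TATTTAAA from 51 to 44 bases before it. Of members not shown, Igfbp4 holds TATAAA from 28 to 23 bases before its start, and Igfbp6 holds it on the other strand, at positions -148 to -143 from its start. One of these 3 motifs is found in 16.8% of 32851 mouse promoter windows of the same length. TATTTAAA, in 1.71% of the windows, was added to the search after the sequence of Igfbp5 had been seen. CCAAT, in 33.8% of windows, is found 1 time in Igf1, on the other strand, and 2 times in Igfbp6. GGGCGG is in 32.7% of windows; Igf1r has 2 copies, Igf2r 3 and Igfbp7 4, and Igfbp3, Igfbp4, Igfbp5, Igfbp6 and Igf1 have 0. The genes that rose, Igfbp3 and Igf1r, thus share none of the searched motifs in these windows, and such matches are letters in a sequence, not shown to be bound.

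Per kilobase of transcript, the unit in which different genes can be compared, Igfbp5 had the highest level of the 8 genes in both groups. IGFBP5 is the main binding protein of skeletal muscle and is made by differentiating muscle cells. Its level was 130.5 ± 14.7 counts per 1000000 per kilobase (CPM per kb; mean ± SD, n = 5) in Control and 119.8 ± 4.05 in 1C-MIM. Igfbp7 followed at 66.9 ± 6.82 CPM per kb in Control, then Igfbp4 at 40.6 ± 4.15 and Igfbp6 at 34.7 ± 5.22. The receptor Igf2r stood at 10.5 ± 1.27, Igfbp3 at 5.29 ± 0.528, Igf1 at 1.74 ± 0.153 and Igf1r at 1.08 ± 0.17 CPM per kb. Among Controls, Igfbp4 (36.2 to 45.3 CPM per kb) and Igfbp6 (28.9 to 41.0) were the one pair of neighbours in this order whose ranges overlapped. In 1C-MIM that pair overlapped again. There, Igf1r (1.42 to 1.57 CPM per kb) and Igf1 (1.14 to 1.85) overlapped too, and Igf1r had the higher mean of this pair. That order depends on the Igf1 transcript kept. On a shorter one, described below, the Igf1 mean was 3.48 CPM per kb in Control and 2.57 in 1C-MIM, above Igf1r in both groups.

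**Figure D1:**
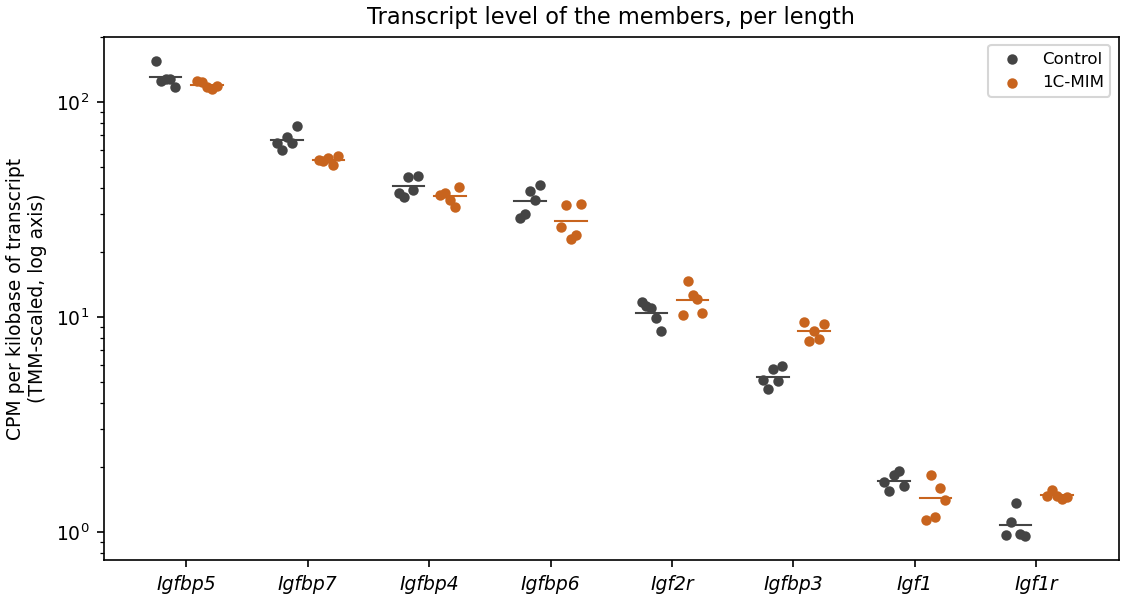
Level of each member in counts per 1000000 per kilobase of transcript (log axis), with a point for each of the 5 Control and 5 1C-MIM libraries and a line at each group's mean. The levels span from Igfbp5, above 115 CPM per kb in every library, to Igf1r and Igf1, below 2 in every library.

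Of the summed level of the 5 binding proteins per kilobase, Igfbp5 made up 47.0% ± 4.68 in the Controls and 48.6% ± 1.53 in 1C-MIM (SD, 5 libraries each). Igfbp3, which with IGFBP5 is known to form the large carrier complexes of IGFs in blood, made up 1.90% ± 0.135 in Control and 3.49% ± 0.284 in 1C-MIM. These shares overlapped between the groups for the other 4 binding proteins and not for Igfbp3.

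Set against Control, supplemented muscle differed in 3 of the 8 genes. Among the 8 genes, all of which passed the filter on low counts, Igfbp3 and Igf1r were higher in supplemented muscle and Igfbp7 was lower. Their mean differences were 1.63-fold, 1.37-fold and, as a decrease, 1.24-fold. Igf1, Igf2r, Igfbp4, Igfbp5 and Igfbp6 did not pass the test. A gene was called where edgeR's quasi-likelihood test gave an adjusted p below 0.05 (Benjamini-Hochberg, 13880 genes tested). Of all tested genes 9.78% were called higher and 11.8% lower, together 21.6%, so 2 of 8 higher and 1 of 8 lower are counts to be read against that background. With library totals as the only scaling, 606 genes were higher and 2896 lower in place of 1357 and 1642, and the calls of the 8 members did not change. The 3 called members are also the ones whose groups did not overlap. Of all tested genes 14.6% had groups that did not overlap, 6.6% with 1C-MIM above and 7.98% with 1C-MIM below.

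**Figure D2:**
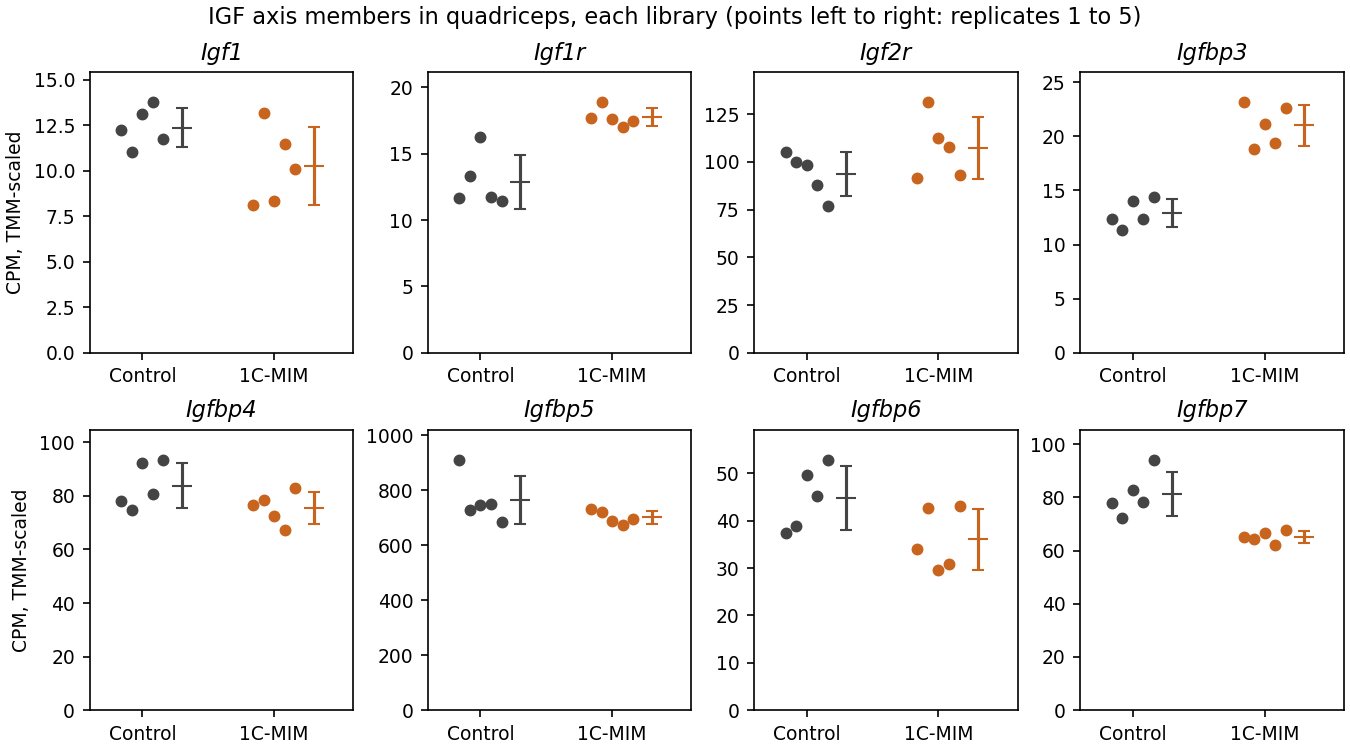
CPM (TMM-scaled counts per 1000000) of each member in each library, with replicates 1 to 5 from left to right in a group and the mean ± SD beside them. Igfbp3 and Igf1r lie higher in all 5 1C-MIM libraries than in any Control, Igfbp7 lies lower, and the groups overlap for the other 5 genes.

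Igfbp3 showed the largest difference of the 8 genes. Its Control libraries 1 to 5 had 12.4, 11.3, 14.1, 12.4 and 14.4 CPM, and its 1C-MIM libraries 1 to 5 had 23.1, 18.8, 21.1, 19.3 and 22.6 CPM. Every 1C-MIM library was above every Control, with a gap between the highest Control and the lowest 1C-MIM library that exceeded the whole range of the Controls. The mean rose from 12.9 ± 1.29 to 21.0 ± 1.91 CPM (SD, n = 5 each). On the log2 scale this is 0.70 (SE 0.08, 95% interval 0.52 to 0.88, edgeR adjusted p = 0.000271). Ordered by p, it was number 53 of the 13880 genes. The libraries held 347 to 683 Igfbp3 reads, which gives a counting error of 3.83 to 5.37% of a value.

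The Igfbp3 call held in each of the 25 alternative settings, with log2 fold changes of 0.63 to 0.75 and adjusted p of up to 0.0429. Igfbp3 has a transcript of 2442 bases, and in its length decile of the tested genes 5.91% were called higher and the median log2 fold change was -0.01. This comparison matters here because, over all tested genes, long transcripts were higher and short ones lower in 1C-MIM (Spearman's rho of length with fold change 0.44, across genes, which are not independent replicates). With each library's trend with transcript length removed, the log2 fold change of Igfbp3 was 0.75 (edgeR adjusted p = 4.8e-05).

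Ratios of counts within a library do not depend on how libraries are scaled, but the libraries' length trends were not removed from them. The transcripts have 2442 bases for Igfbp3, 2066 for Igfbp4, 1213 for Igfbp7 and 5854 for Igfbp5. The ratios were chosen after the members' values were seen and are given without a test. The log2 ratio of Igfbp3 to Igfbp4 counts was -2.70 ± 0.03 in the Controls and -1.85 ± 0.13 in 1C-MIM (SD, 5 libraries each). The Control spread was below the 0.06 to 0.08 that counting alone gives for this ratio in a library. The ratio of Igfbp3 to Igfbp7 went from -2.65 ± 0.05 to -1.64 ± 0.10, and that of Igfbp3 to Igfbp5 from -5.89 ± 0.24 to -5.07 ± 0.13, on the same log2 scale. In these 3 ratios the groups did not overlap, and the 1C-MIM libraries lay above the Controls.

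**Figure D3:**
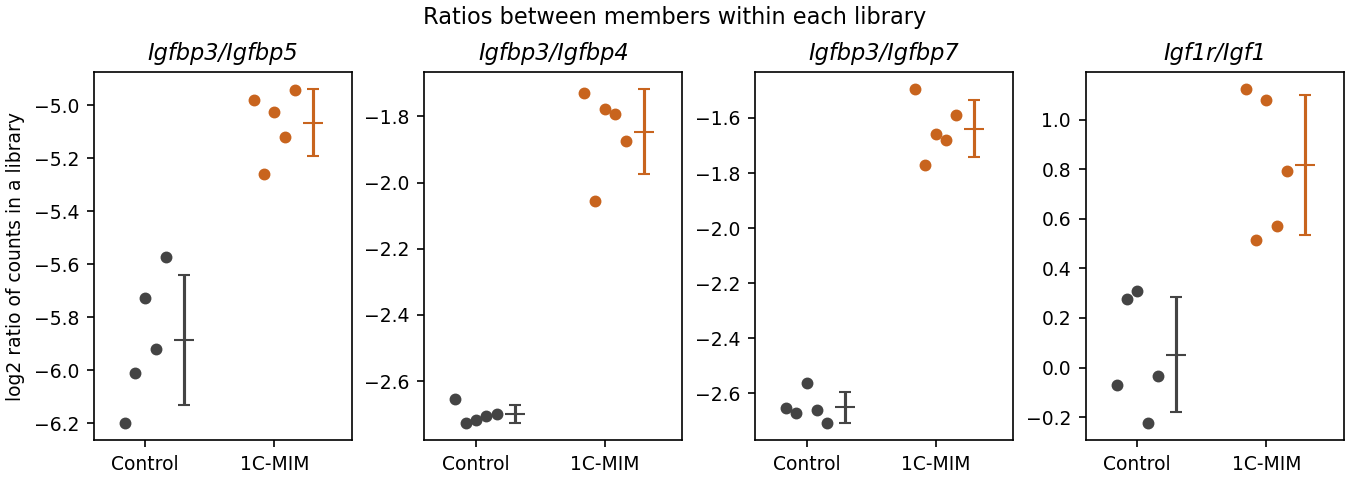
Log2 ratio of the counts of a pair of members within each library, with a point per library and the mean ± SD of each group; the axes do not start at 0. In all 4 ratios the 5 1C-MIM libraries lie above the 5 Controls, for example from -2.06 to -1.73 against -2.73 to -2.65 for Igfbp3 to Igfbp4.

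Igfbp7 encodes a secreted protein of vessel walls and matrix that binds IGFs only weakly. The Controls 1 to 5 had 77.9, 72.1, 82.9, 78.3 and 94.2 CPM of it, and the 1C-MIM libraries 65.2, 64.3, 66.6, 62.0 and 67.9. All 1C-MIM libraries were below all Controls and lay close together, while Control 5 stood above the other Controls. The mean of 65.2 ± 2.26 CPM in 1C-MIM was lower than the 81.1 ± 8.28 CPM of Control. By edgeR, the log2 fold change was -0.31 with an SE of 0.07 and an adjusted p of 0.00757. Its transcript of 1213 bases is in the second-shortest length decile, where 21.3% of genes were called lower and the genes' median was -0.14 on the log2 scale. With the length trend removed, the value was -0.13 and the call was lost (edgeR adjusted p = 0.107).

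Igfbp4 limits IGF action until the protease PAPP-A cuts it, and Igfbp6 prefers IGF2 over IGF1. Igfbp4 ranged from 74.8 to 93.5 CPM in Control and from 67.1 to 82.8 in 1C-MIM (log2 fold change -0.15, SE 0.08, edgeR adjusted p = 0.164). Igfbp6 ranged from 37.3 to 52.9 CPM in Control and from 29.6 to 43.1 in 1C-MIM (-0.31, SE 0.13, edgeR adjusted p = 0.091). All 5 1C-MIM libraries were below the Control mean for both genes, although the ranges overlapped. Among Controls, the libraries 3 and 5 were the highest for Igfbp4, Igfbp6, Igfbp7 and Igfbp3 alike. Igfbp4 and Igfbp7 had 2276 reads each in Control 1 and different numbers in every other library.

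Igfbp5 had 912, 729, 745, 750 and 686 CPM in Controls 1 to 5 and 731, 721, 688, 674 and 695 in 1C-MIM 1 to 5. Control 1 stood apart above all other libraries, and the remaining 9 overlapped. The log2 fold change was -0.12 (SE 0.07, 95% interval -0.28 to 0.029, edgeR adjusted p = 0.22), and -0.05 without Control 1. With the length trend removed it was -0.25 and passed the threshold (edgeR adjusted p = 0.0229), which is a call that none of the other 24 settings gave. With 20194 to 26631 reads per library, counting error is at most 0.704% for this gene, so the spread between animals and not depth sets its precision.

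The type 1 receptor gene Igf1r was at 11.6, 13.3, 16.3, 11.8 and 11.4 CPM in Controls 1 to 5. In 1C-MIM 1 to 5 it was at 17.7, 18.9, 17.6, 17.0 and 17.5 CPM. Control 3 came close to the 1C-MIM libraries, and the other Controls lay well below them. The mean rose from 12.9 ± 2.04 to 17.7 ± 0.683 CPM (log2 fold change 0.46, SE 0.09, 95% interval 0.26 to 0.66, edgeR adjusted p = 0.00559). At 11978 bases its transcript is in the longest decile of the tested genes, of which 28.8% were called higher, with a median log2 fold change of 0.24. The value with the length trend removed was 0.17, and the call was lost (edgeR adjusted p = 0.354).

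Igf2r, which is expressed from the maternal allele in mice, ranged from 76.7 to 105.2 CPM in Control and from 91.6 to 131.1 in 1C-MIM. The groups overlapped, and 3 of 5 1C-MIM libraries were above the Control mean. Its log2 fold change was 0.19 (SE 0.11, 95% interval -0.034 to 0.42, edgeR adjusted p = 0.197). With the length trend removed the sign turned (-0.037, edgeR adjusted p = 0.618).

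The ligand gene Igf1 had 12.2, 11.0, 13.1, 13.8 and 11.7 CPM in Controls 1 to 5. In 1C-MIM 1 to 5 it had 8.12, 13.2, 8.34, 11.4 and 10.1 CPM. The 1C-MIM libraries 1 and 3 were lowest, and 1C-MIM 2 lay among the Controls. The mean was 12.4 ± 1.09 CPM in Control and 10.2 ± 2.14 in 1C-MIM, and the difference did not pass the test (log2 fold change -0.27, SE 0.12, edgeR adjusted p = 0.127, unadjusted p = 0.0463). Without 1C-MIM 2 the log2 fold change was -0.38 and passed (edgeR adjusted p = 0.0352), as it did with the length trend removed (-0.46, edgeR adjusted p = 0.0099). Unlike its receptor, Igf1 moved away from the direction of other long transcripts. The log2 ratio of Igf1r to Igf1 counts was 0.05 ± 0.23 in Control and 0.82 ± 0.28 in 1C-MIM (SD, n = 5), and the groups did not overlap in it.

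Igf1 has 5 transcripts in the tables. Of these, 4 are 6987 to 7121 bases long, had 3349 to 3415 reads summed over the 10 libraries, and have nearly equal counts in each library. The other, of 1087 bases, held 994 reads, 29.1% of those on the longest transcript. On this short transcript alone, an alternative chosen after seeing the data, Igf1 had 3.78 ± 0.315 CPM in Control and 2.79 ± 0.567 in 1C-MIM (log2 fold change -0.44, SE 0.14, edgeR adjusted p = 0.0366). With the short transcript's counts subtracted from those of the longest, the value was -0.21 (SE 0.14, edgeR adjusted p = 0.288). The subtraction takes the short transcript's reads to lie on the longest too, which was not checked. For the short transcript with the length trend removed the log2 fold change was -0.24 (SE 0.15, edgeR adjusted p = 0.292). The Igf1 difference had a negative sign in every setting tried, and whether it passed the threshold depended on the setting.

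**Figure D4:**
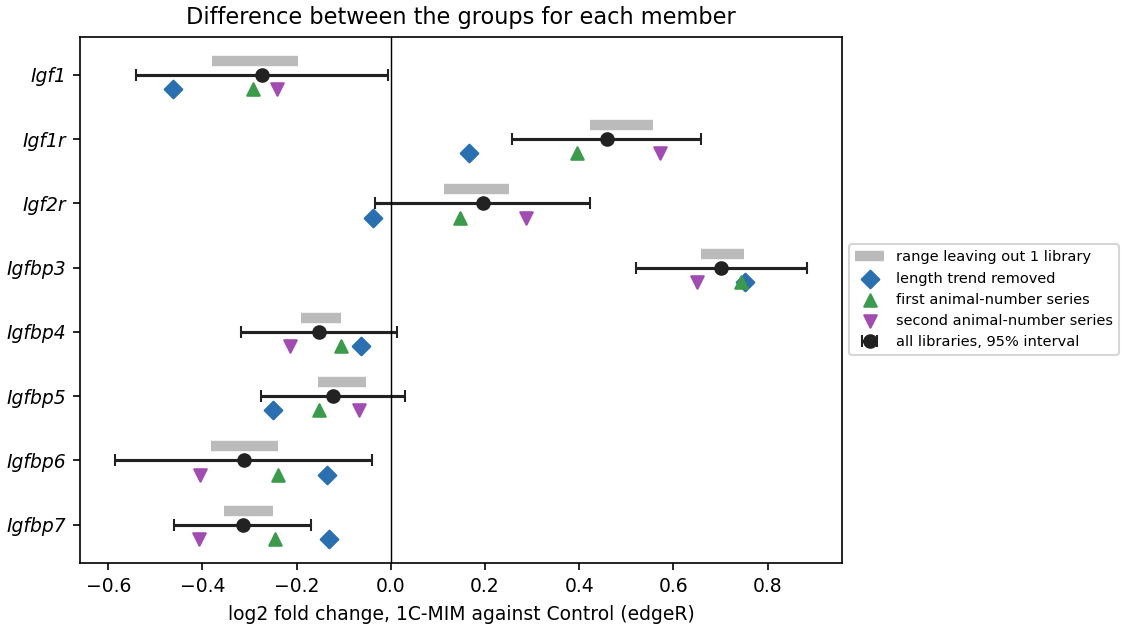
Log2 fold change of each member, 1C-MIM against Control, with its 95% interval (black), the range over fits that leave out 1 library (grey), and the values with the length trend removed or within each of the animal-number series. Igfbp3 stays between 0.65 and 0.75 throughout, Igf1r and Igfbp7 move toward 0 with the length trend removed, and Igf1 moves away from it.

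The deposited names number the animals in a pair of series, with 3 animals per group in the first and 2 per group in the second; the sources used here do not say what the series stand for. Within the first series the log2 fold changes were 0.74 for Igfbp3, 0.40 for Igf1r and -0.25 for Igfbp7. Within the second they were 0.65, 0.57 and -0.41. The Igfbp3 call held within each series (edgeR adjusted p = 0.0393 and 0.0429). Igf1r passed in the second series alone (adjusted p = 0.0429, against 0.16 in the first), and Igfbp7 in neither (0.174 and 0.0949).

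Of 51 other genes of the IGF axis, 47 were tested: 10 rose, 4 fell and 33 did not pass. The 14 called of 47 stand beside 21.6% of all tested genes called, and the list's median log2 fold change was 0.05, beside 0.0009 for all tested genes. Of the tested relatives of the ligand and binding proteins, Igf2, the fetal growth factor, fell: Controls had 33.6 ± 11.3 CPM and 1C-MIM libraries 14.2 ± 1.19 CPM, all below all Controls (log2 -1.24, SE 0.18, edgeR adjusted p = 0.00154). The other tested genes of this group are named after their values were seen. Igfals, which encodes the third part of the circulating IGF complex, had 4.25 ± 0.443 and 5.37 ± 1.11 CPM and was not called (adjusted p = 0.0918). Igfbp2 had 0.457 and 0.464 CPM and was not called (adjusted p = 0.967). Among the proteases that cut binding proteins and their inhibitors, 1 of 6 was called: Stc2, an inhibitor of PAPP-A, rose by 0.77 on the log2 scale (SE 0.17, edgeR adjusted p = 0.00926) at a low level of 1.11 and 1.90 CPM. The Stc2 call was lost in 2 of 25 settings, each animal-number series alone.

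In the growth hormone arm 2 of 6 genes were higher and 1 lower, beside 9.78% and 11.8% of all tested genes. Ghr, the growth hormone receptor, rose by 0.40 on the log2 scale (SE 0.10, edgeR adjusted p = 0.0137), with 119.6 ± 20.5 CPM in Control and 157.6 ± 9.32 in 1C-MIM, and Stat5b rose by 0.23 (SE 0.06). The Ghr call was lost in 2 of 25 settings, each animal-number series alone. The Stat5b call was lost in 4 of 25 settings: library totals only, each animal-number series alone, and the length trend removed (0.12, adjusted p = 0.129). Cish, a feedback inhibitor induced by STAT5 and named after its value was seen, fell by 1.03 (SE 0.31, edgeR adjusted p = 0.0427). Its 1C-MIM libraries spread from 16.3 to 55.2 CPM, and its call was lost in 13 of 25 settings, among them without any one of the Controls 1, 3, 4 and 5 or of 1C-MIM 2 to 5 (adjusted p over all settings up to 0.343). Of 7 receptors and adaptors, Insr, the insulin receptor and closest relative of Igf1r, rose by 0.53 (SE 0.12, edgeR adjusted p = 0.0103). Its transcript of 9355 bases is in the longest length decile. In that decile 28.8% of genes were called higher, with a median log2 fold change of 0.24. The Insr value with the length trend removed was 0.29, and the call held (edgeR adjusted p = 0.00291). That call was lost in 2 of 25 settings, each animal-number series alone. The other 6 did not pass the test. Among them were the insulin receptor substrate genes Irs1 (-0.35, SE 0.16) and Irs2 (-0.31, SE 0.41), also named after their values were seen.

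Within the PI3K-AKT-mTOR-FoxO arm 5 of 13 genes were higher and 0 lower, with a median log2 fold change of 0.29. Of all tested genes 9.78% were called higher. The kinase genes among the 5 were Gsk3b (0.50, SE 0.10), Mtor (0.37, SE 0.11) and Rps6kb1 (0.30, SE 0.07). The others were the mTORC1 inhibitor gene Tsc2 (0.29, SE 0.06) and Foxo3 (0.67, SE 0.20), a factor that AKT inactivates. Gsk3b, Mtor, Rps6kb1 and Tsc2 have transcripts of 5393 to 8595 bases. In the longest and next-longest length deciles of the tested genes 28.8% and 19.4% were called higher. The median log2 fold changes there were 0.24 and 0.14. The calls of Mtor and Foxo3 were lost in 9 and 7 of 25 settings, each without Control 4 or any one of 1C-MIM 2, 3 and 4 (Foxo3 also without Control 3), with adjusted p of up to 0.169 and 0.208. With the length trend removed, 3 members of the arm were higher and the median was 0.12. The call of Mtor was lost there and that of Tsc2 too. Over all settings, the calls of Tsc2 and Rps6kb1 were each lost in 3 of 25, among them each animal-number series alone. Of 6 genes for receptors of binding proteins and for the secreted protein vitronectin, Tmem219, which encodes a receptor for IGFBP3, was lower (-0.26, SE 0.08, edgeR adjusted p = 0.0411). Its call was lost in 12 of 25 settings, among them without any one of the Controls 1, 4 and 5 or of 1C-MIM 2 to 5. The highest adjusted p over all settings, 0.583 by edgeR, came with the length trend removed, where the value was -0.059. In the mannose-6-phosphate system, which makes the tag that IGF2R reads, Gnptab rose by 0.28 (SE 0.08, edgeR adjusted p = 0.0227). Its call was lost in 4 of 25 settings: library totals only, each animal-number series alone, and without 1C-MIM 2 (adjusted p over all settings up to 0.236). Nagpa, named after its value was seen, was lower (-0.24, SE 0.08), a call lost in 14 of 25 settings, among them without any one library other than Control 1 (adjusted p over all settings up to 0.378). Of the 2 tested IGF2 mRNA-binding protein genes, 0 were called. Over the whole list, 9 genes were higher and 4 lower with the length trend removed. Calls gained there were higher for Igfals (0.42, adjusted p = 0.0364) and Htra1 (0.30), and lower for Adam12 (-1.10), Stat5a (-0.26) and Igf2bp2 (-0.65, adjusted p = 0.0476).

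**Figure D5:**
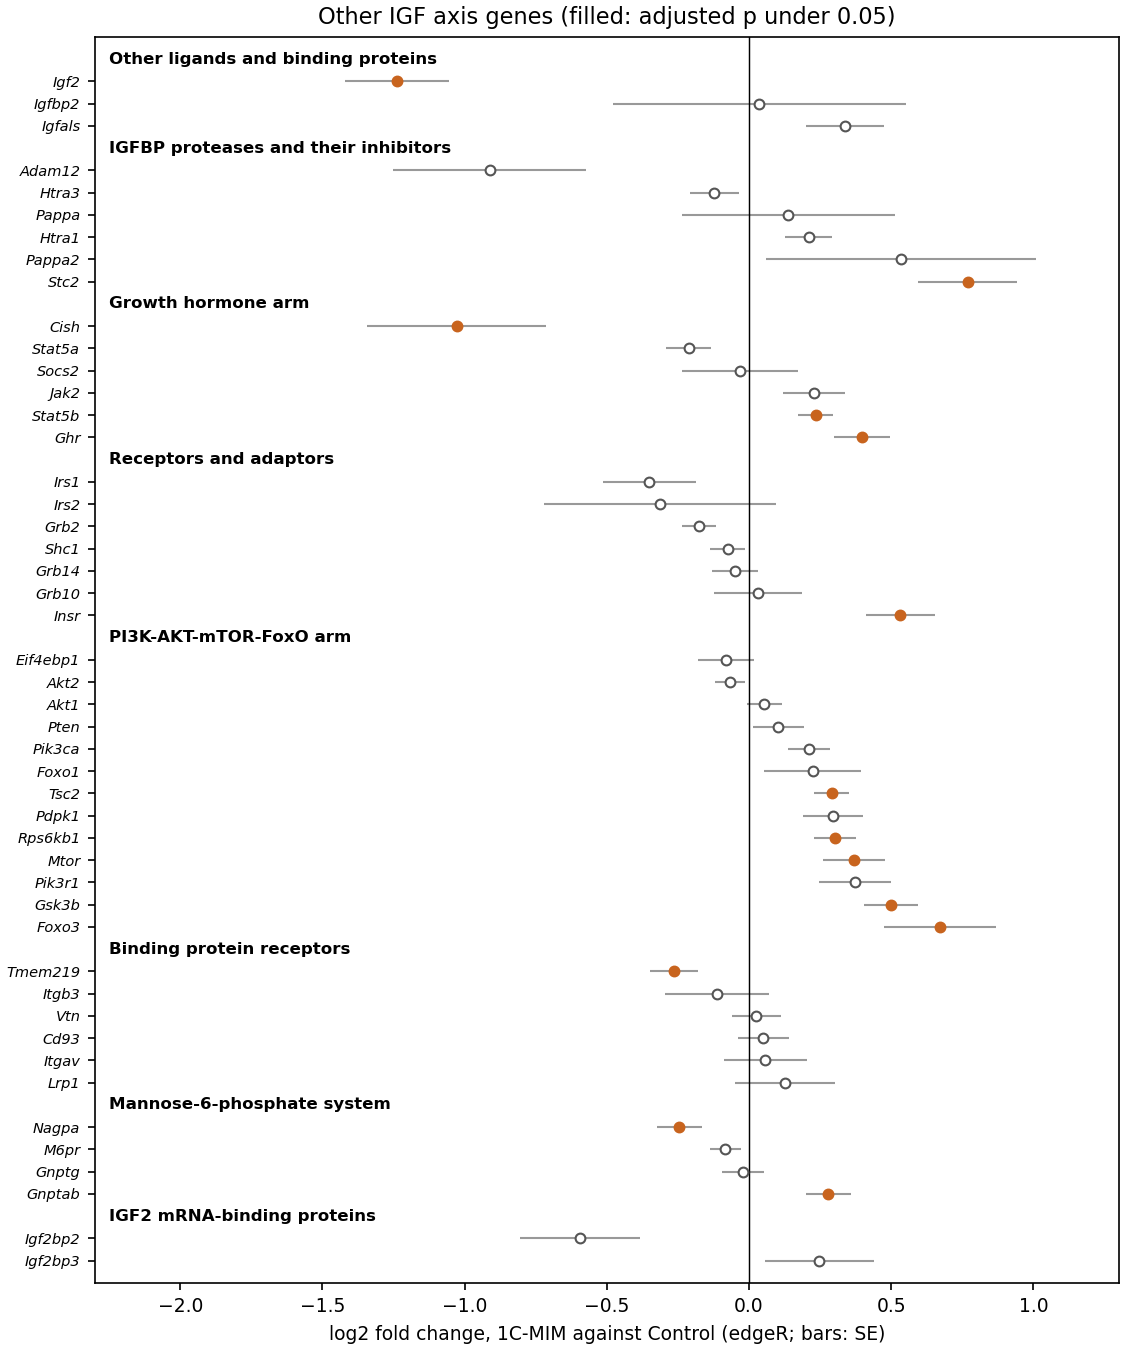
Log2 fold change of the 47 other IGF axis genes tested, 1C-MIM against Control, grouped by role, with the SE as bars and filled points where the edgeR adjusted p was under 0.05. Igf2 at -1.24 and Cish at -1.03 lie farthest to the left, and Stc2 at 0.77 lies farthest to the right.

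Members of the IGF axis are made by several cell types of muscle, and in whole-muscle RNA fewer cells of a type and less RNA per cell cannot be told apart. Myofibre genes, the defining genes of the labelled tissue, summed to 161090 to 183654 CPM in Control and 176767 to 202632 in 1C-MIM. Of the 8 genes 3 were called higher, beside 9.78% of all tested genes, and 2 with the length trend removed. Of the most abundant, Myh4 was higher (0.32) and Acta1 was not called (0.008). The called genes were Myh4, Myh1 and Ttn, with transcripts of 6019 to 101674 bases. Myh1 and Ttn are named after their values were seen. Macrophages are a known source of Igf1: 9 of 11 tested macrophage markers were lower, beside 11.8% of all tested genes called lower. The sum of the tested markers was 295 to 551 CPM in Control and 166 to 234 in 1C-MIM. The most abundant, Lyz2 and C1qb, fell by 1.33 and 1.16 on the log2 scale. Cd163 (0.19) and Mrc1 (-0.22), named after their values were seen, were not called. Connective tissue cells of the fibro-adipogenic progenitor type are known to make Igf1 and several binding proteins. Of their 10 markers 7 were lower, beside the same 11.8%, with a sum of 975 to 1369 CPM in Control and 719 to 1052 in 1C-MIM. Of the most abundant, Dcn was not called (0.07) and Col3a1 fell by 1.55 on the log2 scale. Pdgfra (0.03) and Cd34 (-0.20), named after their values were seen, were not called. The counts were 8 macrophage and 5 progenitor markers lower with the length trend removed. The part of either cell type in the Igf1, Igfbp4, Igfbp6 or Igfbp7 values was not tested.

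Igfbp3 and Igfbp7 are known products of vessel cells. Of 10 endothelial markers 5 were higher and 0 lower, with a sum of 245 to 337 CPM in Control and 330 to 388 in 1C-MIM, beside 9.78% of all tested genes called higher. Of the 10, 2 were higher with the length trend removed. Of the most abundant, Pecam1 was not called (0.22, edgeR adjusted p = 0.053) and Cdh5 was higher (0.37, adjusted p = 0.0123). Their median log2 fold change was 0.23, beside 0.70 for Igfbp3 and -0.31 for Igfbp7. Of 9 smooth muscle and pericyte markers 2 were higher and 0 lower (summed 472 to 599 CPM in Control, 534 to 744 in 1C-MIM). The called genes were Rgs5 (0.74) and Cspg4 (0.39), named, like Cd4 and Lep, after their values were seen; with the length trend removed 1 was called. The most abundant, Abcc9 (0.43, adjusted p = 0.0524) and Acta2 (-0.25), were not called. Of the sum, Abcc9 had a mean of 212.6 CPM in Control and 286.9 in 1C-MIM, and which cells made it was not tested. Satellite cell markers had 2 of 5 lower, beside 11.8% of all tested genes. These were the most abundant ones, Sdc4 and Vcam1. Pax7 (-0.15), Myf5 (-0.29) and Chrdl2 (0.14), named after their values were seen, were not called. The sum was 31.1 to 45.6 CPM in Control and 26.6 to 29.5 in 1C-MIM, of which Sdc4 had a mean of 26.5 and 18.6 CPM. Of 5 lymphocyte and pan-leukocyte markers Ptprc (-0.63) and Cd4 (-1.61) were lower, beside the same 11.8%. The pan-leukocyte gene Ptprc had a mean of 6.78 CPM in Control and 4.38 in 1C-MIM. Cd4 was at a low level of 0.99 and 0.32 CPM. Cd3e, with Ptprc the most abundant, was not called (summed 7.46 to 12.6 and 5.49 to 8.21 CPM). Of 5 adipocyte markers Lep was higher (1.42), and the most abundant, Adipoq (0.08) and Cidec (0.10), were not called (summed 139.2 to 180.0 and 129.3 to 244.5 CPM). None of 5 tenocyte markers was called, the most abundant being Fmod and Comp (summed 101.1 to 158.5 and 55.4 to 181.7 CPM). The part of these cells in the member values was not tested.

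For each member, the 2 genes whose deviations from the group means were most like its own over the 10 libraries were found among 11860 candidates. This likeness is a description without a test: the genes share libraries and depth. The highest of 11860 correlations over 10 libraries can be high through selection alone, and the libraries' length trends were not removed. Igf1 was most like Rcan1, a calcineurin inhibitor (Pearson's r = 0.95), and Tmeff2 (0.95). Igfbp3 was most like Crip2 (0.98) and Irf2bp2 (0.98), Igfbp7 like Cnpy3 (0.95) and the lysosomal protease gene Ctsa (0.94), and Igf1r like Nfkbie (0.92) and Mmp28 (0.91). Igfbp4 was nearest to the neonatal Fc receptor gene Fcgrt (0.95) and Pla2g15 (0.93), Igfbp5 to Bhlhb9 (0.94) and Fkbp14 (0.93), Igfbp6 to the lubricin gene Prg4 (0.96) and Tmem53 (0.95), and Igf2r to Herc2 (0.98) and Macf1 (0.98). Of these genes Herc2, Fcgrt, Cnpy3 and Ctsa were themselves called between the groups. The genes nearest to Igfbp3 were not: Crip2 had a log2 fold change of 0.07 and Irf2bp2 one of -0.13.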

How the data were processed

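RNA of quadriceps from 10 mice was measured, with a table per animal. Per the submitters' processing notes, the tools were Subread 2.0.1, featureCounts, StringTie 2.2.1, STAR, Salmon 1.5.2, bedtools 2.30.0, DESeq2 1.28.0, Picard 2.27.4, SAMtools 1.15.1 and Trim Galore 0.6.7, with build GRCm39, with no role or order given. The deposited count values are raw whole numbers for 33984 RefSeq transcripts, and isoforms of a gene can hold the same reads. The FPKM values deposited by the authors gave the transcript lengths. TPM values as the authors deposited them served as an alternative for levels. The sources used here do not give the strand setting or filters of the counting.

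The transcript with the most reads represented each symbol, which left out 45.3 to 47.4% of a library's transcript counts. Libraries then held 28521254 to 31771296 counts. Genes were filtered with filterByExpr, scaled by TMM and tested with edgeR 4.0.16 (R 4.3.3), quasi-likelihood with robust dispersion and Benjamini-Hochberg adjustment over 13880 genes. CPM are TMM-scaled, log2 values for correlations used a prior count of 2, and 95% intervals are unadjusted. The fitting script was tested on simulated data. The alternatives are other scalings, filters and tests (DESeq2 1.42.0, limma 3.58.1 voom), blocks, libraries left out, and each library's length trend removed by a natural spline with 3 inner knots. Partner genes were named if called (up to 12 by smallest p), with Igf2 and Ghr in any case, and 2 genes like each member in deviation, leaving out predicted genes and those with a mean log2 CPM under 0. The members and lists were chosen with earlier results of these data known. The result of 1 marker list is not reported here.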

Additional observations from a re-analysis of the deposited data

Results flagged for a closer look

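The Igfbp5 value of Control 1, 912 CPM, lay far from the other Controls. Its gap to the nearest of them, 750 CPM, was 0.715 of the group's whole range, whose lower end was 686 CPM. Of 16 groups of 5 libraries examined (8 genes in 2 groups) it was the one past the limit for a single outlying value, and chance alone flags about 1 in 20 such groups. Without Control 1 the log2 fold change of Igfbp5 was -0.05 in place of -0.12, and neither value passed the test.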

How the results depend on the processing

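Igfbp3 was called higher in all 25 alternatives. With the length trend removed, 1 member was called higher and 2 lower (in place of 2 and 1): Igf1r went to 0.17 and Igfbp7 to -0.13, neither of them called, Igf1 at -0.46 and Igfbp5 at -0.25 became calls, and Igf2r reversed to -0.037. In the first animal-number series alone 1 member was higher and 0 lower, with Igf1r at 0.40 and Igfbp7 at -0.25 no longer called, and 0 partner genes were called in place of 14. In the second series alone 0 members were lower, Igfbp7 being -0.41, and 3 partner genes were called; both series hold fewer samples, and over all genes 31 were higher and 64 lower in the first and 127 and 269 in the second, in place of 1357 and 1642. An adjusted p under 0.1 gave 2 members lower and 23 partner genes. The short Igf1 transcript gave -0.44 as a call. The cause of these shifts was not tested.

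Leaving out 1 library gave 2 members higher each time, 1 to 2 lower and 9 to 16 partner genes, the lowest number without 1C-MIM 4. The log2 fold changes then ranged from -0.38 to -0.20 for Igf1, 0.42 to 0.56 for Igf1r, 0.11 to 0.25 for Igf2r, 0.66 to 0.75 for Igfbp3, -0.19 to -0.10 for Igfbp4, -0.15 to -0.05 for Igfbp5, -0.38 to -0.24 for Igfbp6 and -0.35 to -0.25 for Igfbp7. Without Control 1 and Control 5 together the 3 calls held. Replicate numbers are shared between the groups, but the labels tie them to nothing, and deviations of same-numbered libraries correlated at -0.10 to 0.52, so they were not taken as pairs; 2 of 5 libraries correlated best with their own number. With replicate number as a block, the fold changes were 0.70 for Igfbp3, 0.47 for Igf1r and -0.31 for Igfbp7, 2 members were higher and 1 lower, over all genes 1932 were higher and 1965 lower, and 20 partner genes were called. Levels per kilobase moved by over 1 SD for Igf1, to 3.48 in Control and 2.57 in 1C-MIM with its short transcript, and for Igfbp7 in 1C-MIM, to 58.2. With library totals as the scaling, the median log2 fold change of all genes was -0.07. Depth limits the least abundant members, Igf1, Igf1r and Igfbp3, to a counting error of up to 6.52%.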

Other observations

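Among the IGF axis genes too low to be tested, Igfbp1, the binding protein of liver, had 0 reads in all 10 libraries, which allows up to 0.00995 CPM by counting error alone. Igfbpl1, an IGF binding protein-like gene, had 33 reads, of which 28 were in Control 1. The PAPP-A inhibitor Stc1 had 3 to 10 reads per library, and Igf2bp1 had 2 reads in all.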
